A study of Mus musculus with 12 samples.

Results

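The response to cytokines of the gp130 family was followed through 10 genes in the retinal pigment epithelium (RPE) of rd6 and wild-type (WT) mice: *Lif*, *Il6st*, *Osmr*, *Lifr*, *Stat3*, *Socs3*, *Cebpd*, *Bcl3*, *Gfap* and *Tnfrsf1a*. They are 10 of the 28591 genes in the deposited table. The genes were picked by name for their role in the pathway, with the measured difference between the genotypes already in view. That difference is therefore given for them as a description, without a test.

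The 6 rd6 mice were homozygous for the rd6 allele (*Mfrp* rd6/rd6) and the 6 WT mice were C57BL/6J, all 1 mo of age, with no treatment given in the labels. The labels give neither the sex nor the strain background of the rd6 mice, so a difference in background and the rd6 allele cannot be told apart. The allele, a splice-site mutation, is carried by every cell of the animal and is not specific to the RPE. Each library was made from RNA of the RPE of both eyes together. Levels are normalized counts, the reads on a gene divided by the size factor of the library.

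Cytokines of this family, among them interleukin 6 (IL-6), leukemia inhibitory factor (LIF), oncostatin M and ciliary neurotrophic factor (CNTF), bind receptor complexes that share the signaling chain gp130, encoded by *Il6st*. Janus kinases (JAKs) attached to the receptors then phosphorylate STAT3, which enters the nucleus and raises its target genes, including its own inhibitor *Socs3*. In the injured eye, LIF made by Müller glia is known to protect photoreceptors through gp130, and *Gfap*, an intermediate filament of astrocytes and reactive Müller glia, is a customary sign of retinal stress.

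STAT proteins bind DNA at the palindrome TTCNNNGAA, in which N is any base. Both strands of the RefSeq windows on GRCm38.p6, running from 250 bases before to 50 bases after an annotated start, were searched for it and for the looser TTCNNNNAA, which includes it. The palindrome occurred in 8.30% and the looser form in 38.0% of all 32851 windows. Of the 10 genes, 9 have a window, and the palindrome was in 3 of these, those of *Socs3*, *Tnfrsf1a* and *Gfap*. *Stat3*, *Osmr*, *Il6st* and *Lif* held the looser form only, the windows of *Lifr* and *Bcl3* held neither, and *Cebpd* was not matched. The stretches around these letters are shown 5′ to 3′ because they set members that differed between the genotypes beside *Gfap* and *Il6st*, which overlapped. Capitals mark the palindrome in the first 3 and the looser form in the last 3.
Socs3: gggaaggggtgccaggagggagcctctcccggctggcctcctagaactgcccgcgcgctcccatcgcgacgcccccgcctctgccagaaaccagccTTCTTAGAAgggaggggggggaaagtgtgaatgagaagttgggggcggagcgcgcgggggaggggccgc
Tnfrsf1a: gcttccTTCCGTGAAattgacaacaggctt
Gfap: tcaatgggggtgcTTCCAGGAAgtcagggg
Stat3: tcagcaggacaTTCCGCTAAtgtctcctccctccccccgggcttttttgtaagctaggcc
Osmr: ccccggcgctTTCCCGTAActcccgcccct
Il6st: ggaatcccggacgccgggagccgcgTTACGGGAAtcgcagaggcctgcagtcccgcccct

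The stretch of *Socs3* lies at chr11:117969452-117969616 on the minus strand, before the RefSeq start and within the GENCODE M21 bounds of the gene, under none of its exons. That of *Tnfrsf1a* is at chr6:125349473-125349502 on the plus strand, where GENCODE places an exon of another transcript of the gene. The match of *Gfap*, at chr11:102897186-102897215 on the minus strand, spans the RefSeq start. *Stat3* is shown at chr11:100939731-100939790 on the minus strand, *Osmr* at chr15:6874329-6874358 on the minus strand, inside its first GENCODE exon, and *Il6st* at chr13:112463925-112463984 on the plus strand. A match of letters says nothing of binding in these cells. *Socs3*, the member with the largest fold difference, and *Gfap*, whose genotypes overlapped, both carry the palindrome, and *Bcl3* carries neither form.

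The libraries held 29218135 to 33152725 counted reads in WT and 28907262 to 32336530 in rd6 (p = 0.963, two-sided exact permutation test, n = 6 each). Among the 10 genes and 102 others of the pathway, WT replicate 4 was the highest WT library for 53 of the 112, and values without it are given wherever it decides a result. *Mfrp* mRNA, the check of the genotype, was present in both, at 40022 ± 5488 normalized counts in WT and 25881 ± 3091 in rd6 (SD, n = 6 each), with every rd6 library below every WT library; its exons share bases with 3 other genes. Of 10 RPE markers, 9 stood at 2492 normalized counts or more in each library, whereas *Best1*, a chloride channel gene that defines the RPE, was between 9.33 and 48.7. Other cells were present as well, since markers of microglia, rods, endothelium, fibroblasts and Schwann cells were all detected.

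In the comparison of rd6 with WT, 6 of the 10 genes (*Stat3*, *Osmr*, *Lifr*, *Socs3*, *Cebpd* and *Tnfrsf1a*) were higher in all 6 rd6 libraries than in any WT library, and the other 4 overlapped. Calls were made with limma at q, the p adjusted by Benjamini and Hochberg, below 0.05 across 17768 genes whose mean reached 10 normalized counts. By that rule 11.4% of all genes tested were higher and 11.6% lower in rd6. *Lif* was too low to enter, as 9 of the 10 genes did. No call is given for the 10, since they were picked with this difference in view, and nothing is read from their count beside those shares. The shares are of calls. How many of all genes had groups that did not overlap was not counted, so the 6 of 10 have no such share beside them. In these bulk samples, more cells of a type and more RNA per cell cannot be told apart.

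**Figure D1:**
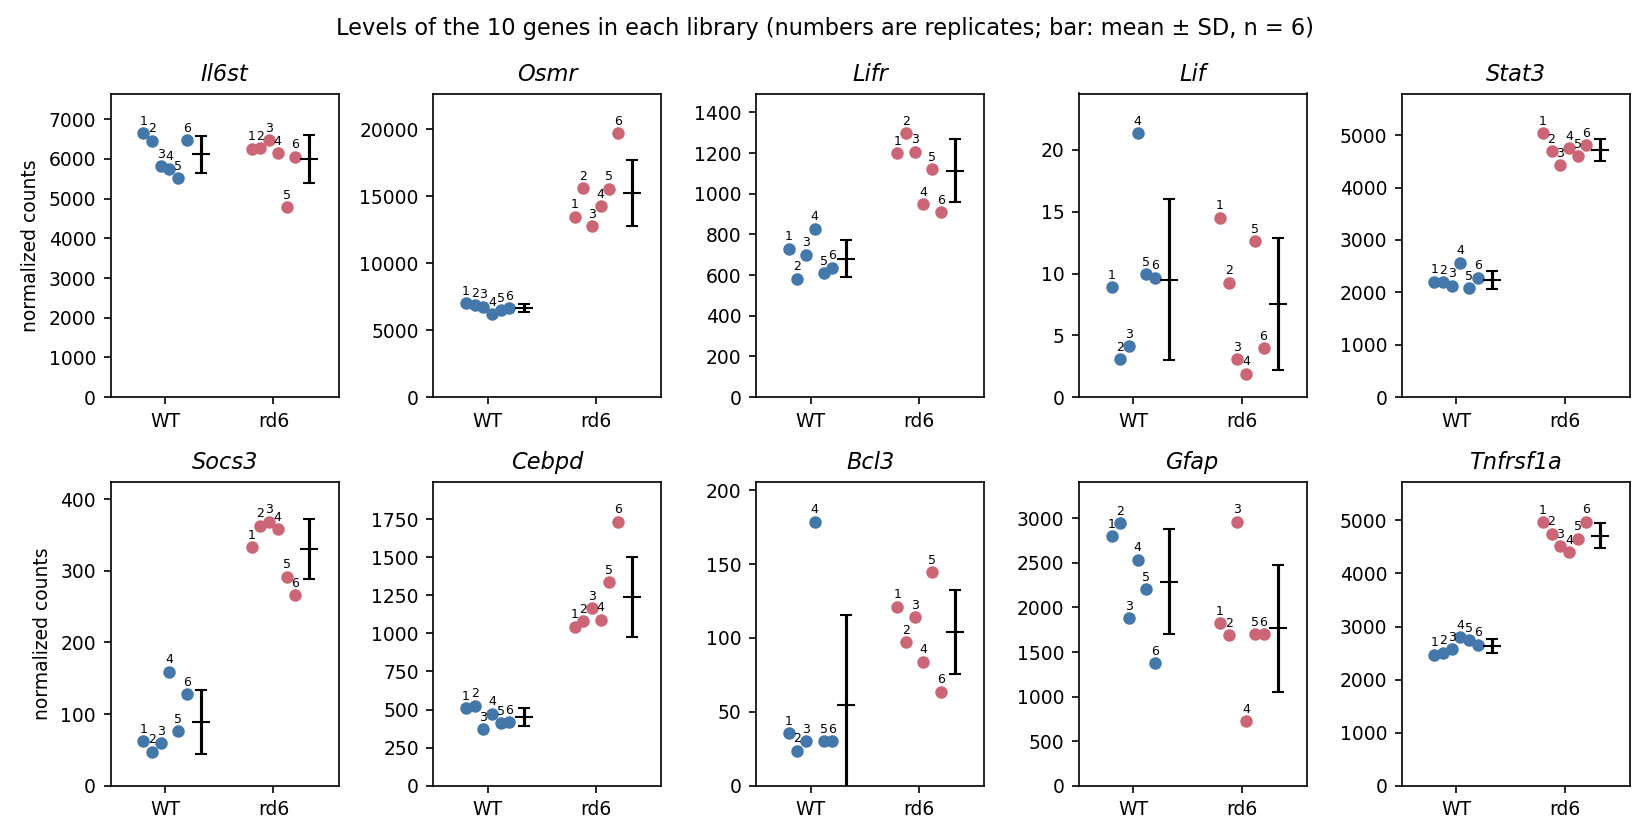
Normalized counts (vertical axes, linear and starting at 0) of the 10 genes in each of the 6 WT (blue) and 6 rd6 (red) libraries, numbered by replicate, with the mean ± SD of 6 in black. *Stat3*, *Osmr*, *Lifr*, *Socs3*, *Cebpd* and *Tnfrsf1a* show separate groups, *Il6st*, *Lif* and *Gfap* overlap, and *Bcl3* overlaps through WT replicate 4 at 179 (its lower WT error bar runs below 0 and is not drawn in full).

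Beginning with the ligands, *Lif* (chr11:4257557-4272514) was near the limit of detection. Its levels were 3.10, 9.27 and 21.4 normalized counts (lowest, median and highest) in WT and 1.91, 6.63 and 14.5 in rd6, resting on 57 reads in all WT and 47 in all rd6 libraries. The groups overlapped, with WT replicate 4 the highest of the 12, and 9 of the 12 libraries lay above 3 reads. Fitted without the filter on low values, its log2 fold change was -0.35 ± 0.51 SE.

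Most other ligands were scarce as well. Of 10, only 5 reached a mean of 10 normalized counts, 1 rose and 1 fell. *Il6*, which encodes the founding member of the family, reached at most 0.971 in WT and 2.05 in rd6. *Osm*, the ligand of the oncostatin M receptor, was between 0 and 4.15 in WT and between 2.98 and 15.3 in rd6. The 2 ranges overlapped, and *Osm* rested on 7 reads in all WT and 41 in all rd6 libraries, below the filter. Fitted without the filter, *Osm* was called higher, with a log2 fold change of 1.86 ± 0.45 SE (limma q = 0.0135) and 2.48 ± 0.84 SE by DESeq2 (q = 0.0173), values that at so few reads depend on the pseudocount or prior.

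*Cntf* was at most 6.80 in WT and 7.64 in rd6, *Ctf2* at most 5.19 and 3.08, and *Il27* at most 3.32 and 2.91. *Ebi3*, whose product pairs with the IL-27 subunit p28, rose from 9.95 ± 7.61 to 19.5 ± 4.05 normalized counts (SD, n = 6; log2 fold change 1.08 ± 0.34 SE, limma q = 0.0366), but the groups overlapped and the call was lost in 14 of 20 other ways of fitting it. *Ctf1*, cardiotrophin 1, was by far the most abundant ligand and fell from 1275 ± 143 to 1044 ± 103 (log2 fold change -0.29 ± 0.09 SE, limma q = 0.0296), a call lost in 7 of 21 other fits.

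*Il11* stood at 26.0 ± 8.34 normalized counts in WT and 27.5 ± 6.89 in rd6 (limma q = 0.802), and *Clcf1*, which signals through the CNTF receptor, at 66.3 ± 17.7 and 72.7 ± 10.6 (limma q = 0.553).

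Turning to the receptors, the shared chain *Il6st* (chr13:112464070-112510086) was abundant and much alike in both genotypes. Its lowest, median and highest levels were 5517, 6134 and 6651 normalized counts in WT and 4784, 6202 and 6469.5 in rd6. The groups overlapped throughout apart from rd6 replicate 5, the lowest of all. The log2 fold change was -0.03 ± 0.08 SE and became 0.03 without that library.

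The oncostatin M receptor chain, *Osmr* (chr15:6813577-6874969), pairs with gp130 to bind oncostatin M. It measured 6202, 6712 and 7009 normalized counts in WT and 12780, 14925 and 19725 in rd6 (lowest, median and highest). Each rd6 library was above each WT library, and rd6 replicate 6 was the highest. The means were 6667 ± 290 and 15240 ± 2465 (SD, n = 6), a ratio of 2.29, with a log2 fold change of 1.18 ± 0.09 SE that stayed between 1.10 and 1.23 when any library was left out.

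*Lifr* (chr15:7090614-7197489), which pairs with gp130 to bind LIF and CNTF, lies on the same chromosome as *Osmr* and differed by less. Its levels were 582, 669 and 827 normalized counts in WT and 911, 1159.9 and 1298 in rd6. WT replicate 4 was the highest WT library and rd6 replicate 6 the lowest rd6 library, and the groups did not overlap. The log2 fold change was 0.71 ± 0.11 SE, and 0.77 without WT replicate 4.

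Of the chains particular to single ligands, 1 of the 4 that could be tested rose. This was *Cntfr*, the anchored chain that binds CNTF, at 232 ± 42.4 normalized counts in WT and 402 ± 79.5 in rd6 (log2 fold change 0.79 ± 0.15 SE, limma q = 0.00222), with no overlap between the groups. *Il6ra* was 52.2 ± 33.1 and 83.0 ± 11.1 (log2 fold change 0.84 ± 0.30 SE, limma q = 0.0596), and without WT replicate 4, at 116 the highest of all libraries, its log2 fold change was 1.10 and was called. *Il11ra1* differed little, at 2481 ± 263 and 2589 ± 107 (limma q = 0.501). *Il27ra* was 9.81 ± 2.91 and 17.8 ± 8.83 (limma q = 0.161), and *Il31ra* fell below the filter, reaching 15.5 in WT replicate 4 and at most 1.11 in the other WT libraries.

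Levels of different genes can be set beside each other only per length. Per kilobase of exon, *Tnfrsf1a* led in WT at 1013 normalized counts, and *Il6st* (551), *Osmr* (550) and *Gfap* (543) followed with overlapping ranges. *Stat3* (235), *Cebpd* (120) and *Lifr* (63.2) came next in separate ranges, except that *Lifr* overlapped *Socs3* (30.7), which in turn overlapped *Bcl3* (22.1), with *Lif* last at 2.19. In rd6, *Osmr* had moved apart from and above *Il6st*, at 1258 against 540 normalized counts per kilobase. *Stat3* at 495 overlapped *Il6st* there through rd6 replicate 5 alone, whose *Il6st* was 431, since the other rd6 libraries lay at 546 or more and *Stat3* at 529 or less. *Gfap* at 419 overlapped both *Stat3* above and *Cebpd* (331) below. *Socs3* (114) and *Lifr* (103) overlapped, followed by *Bcl3* (42.0) and *Lif* (1.74). *Il6st* and *Osmr*, the chains that together bind oncostatin M, thus stood at nearly equal levels per kilobase in WT and at unequal levels in rd6. The length was that of all annotated exons of a gene merged, not of the transcripts made. These are mRNA levels and do not give the ratio of the receptor proteins.

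*Stat3* itself (chr11:100885098-100939540) measured 2076, 2196 and 2563 normalized counts in WT and 4424, 4719 and 5038 in rd6 (lowest, median and highest). No library of one genotype came near the other, WT replicate 4 being the highest in WT and rd6 replicate 1 in rd6. The means of 2240 ± 173 and 4718 ± 206 (SD, n = 6) stood in a ratio of 2.11, and the log2 fold change was 1.08 ± 0.05 SE. A short stretch of its exons overlaps those of *Stat5a* on the opposite strand. Counting was done at the standard settings of Rsubread, which do not use strand. Reads on those bases cannot be told apart by strand, and whether they were counted for either gene is not stated.

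The kinases and the other STAT genes did not move as a block: of 13 tested, 3 rose and 3 fell. *Jak3*, the kinase of receptors that share the common gamma chain, rose the most, from 223 ± 56.7 to 689 ± 33.4 normalized counts (log2 fold change 1.66 ± 0.14 SE, limma q = 4.73e-06), with the groups apart. Its exons share bases with *Insl3* on the same strand. *Jak1*, *Jak2* and *Tyk2*, the kinases that gp130 receptors use, had log2 fold changes of 0.16, -0.12 and -0.17 and were not called (limma q = 0.0912, 0.155 and 0.11). Without WT replicate 4, *Jak1* was called higher, at 0.21 ± 0.05 SE.

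*Stat2*, which carries interferon signals, rose by a log2 fold change of 0.45 ± 0.10 SE (limma q = 0.00662). *Stat5b* fell from 2712 ± 249 to 1954 ± 193 normalized counts (log2 fold change -0.47 ± 0.08 SE, limma q = 0.000914). *Stat5a* fell as well, to a smaller degree (-0.21 ± 0.07 SE, limma q = 0.044) and with the call lost in 12 of 21 other fits, and so did *Gab1*, an adaptor of the receptor complex (-0.28 ± 0.05 SE, limma q = 0.00109). *Stat6*, at 2096 ± 70.5 and 2067.5 ± 24.1, showed a log2 fold change of -0.02 (limma q = 0.736).

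Among the inhibitors, *Socs3* (chr11:117966079-117970047), the feedback inhibitor that STAT3 induces, showed the largest fold difference of the 10 genes. Its levels were 47.5, 69.3 and 159 normalized counts in WT and 266, 346 and 369 in rd6. WT replicates 4 and 6, at 159 and 128, were above the other WT libraries but below the lowest rd6 library. The ratio of the means was 3.72, and 4.43 without WT replicate 4. The log2 fold change was 2.01 ± 0.26 SE with all libraries and 2.21 ± 0.21 SE without that one.

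Of the 14 other inhibitors, 3 rose and 4 fell, where 11.4% and 11.6% of all genes tested did. The 4 that fell were all of the same family as *Socs3*: *Socs4* (log2 fold change -0.39 ± 0.06 SE, limma q = 0.000622, groups apart), *Socs7* (-0.26 ± 0.06 SE, limma q = 0.00994), *Socs6* (-0.20 ± 0.06 SE, limma q = 0.0354, a call lost in 10 of 21 other fits) and *Socs5* (-0.18 ± 0.05 SE, limma q = 0.0152). The 3 that rose were tyrosine phosphatases that can remove the activating phosphate from JAKs or STATs. They were *Ptpn2* (0.46 ± 0.07 SE, limma q = 0.000564), *Ptpn6* (0.40 ± 0.07 SE, limma q = 0.00222) and *Ptpn1* (0.12 ± 0.04 SE, limma q = 0.0388), the last of which was not called in 11 of 21 other fits. *Socs1* and *Cish* had log2 fold changes of 0.57 ± 0.26 SE and 0.60 ± 0.26 SE and were not called (limma q = 0.14 and 0.121), and the 4 *Pias* genes lay between -0.17 and 0.01.

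**Figure D2:**
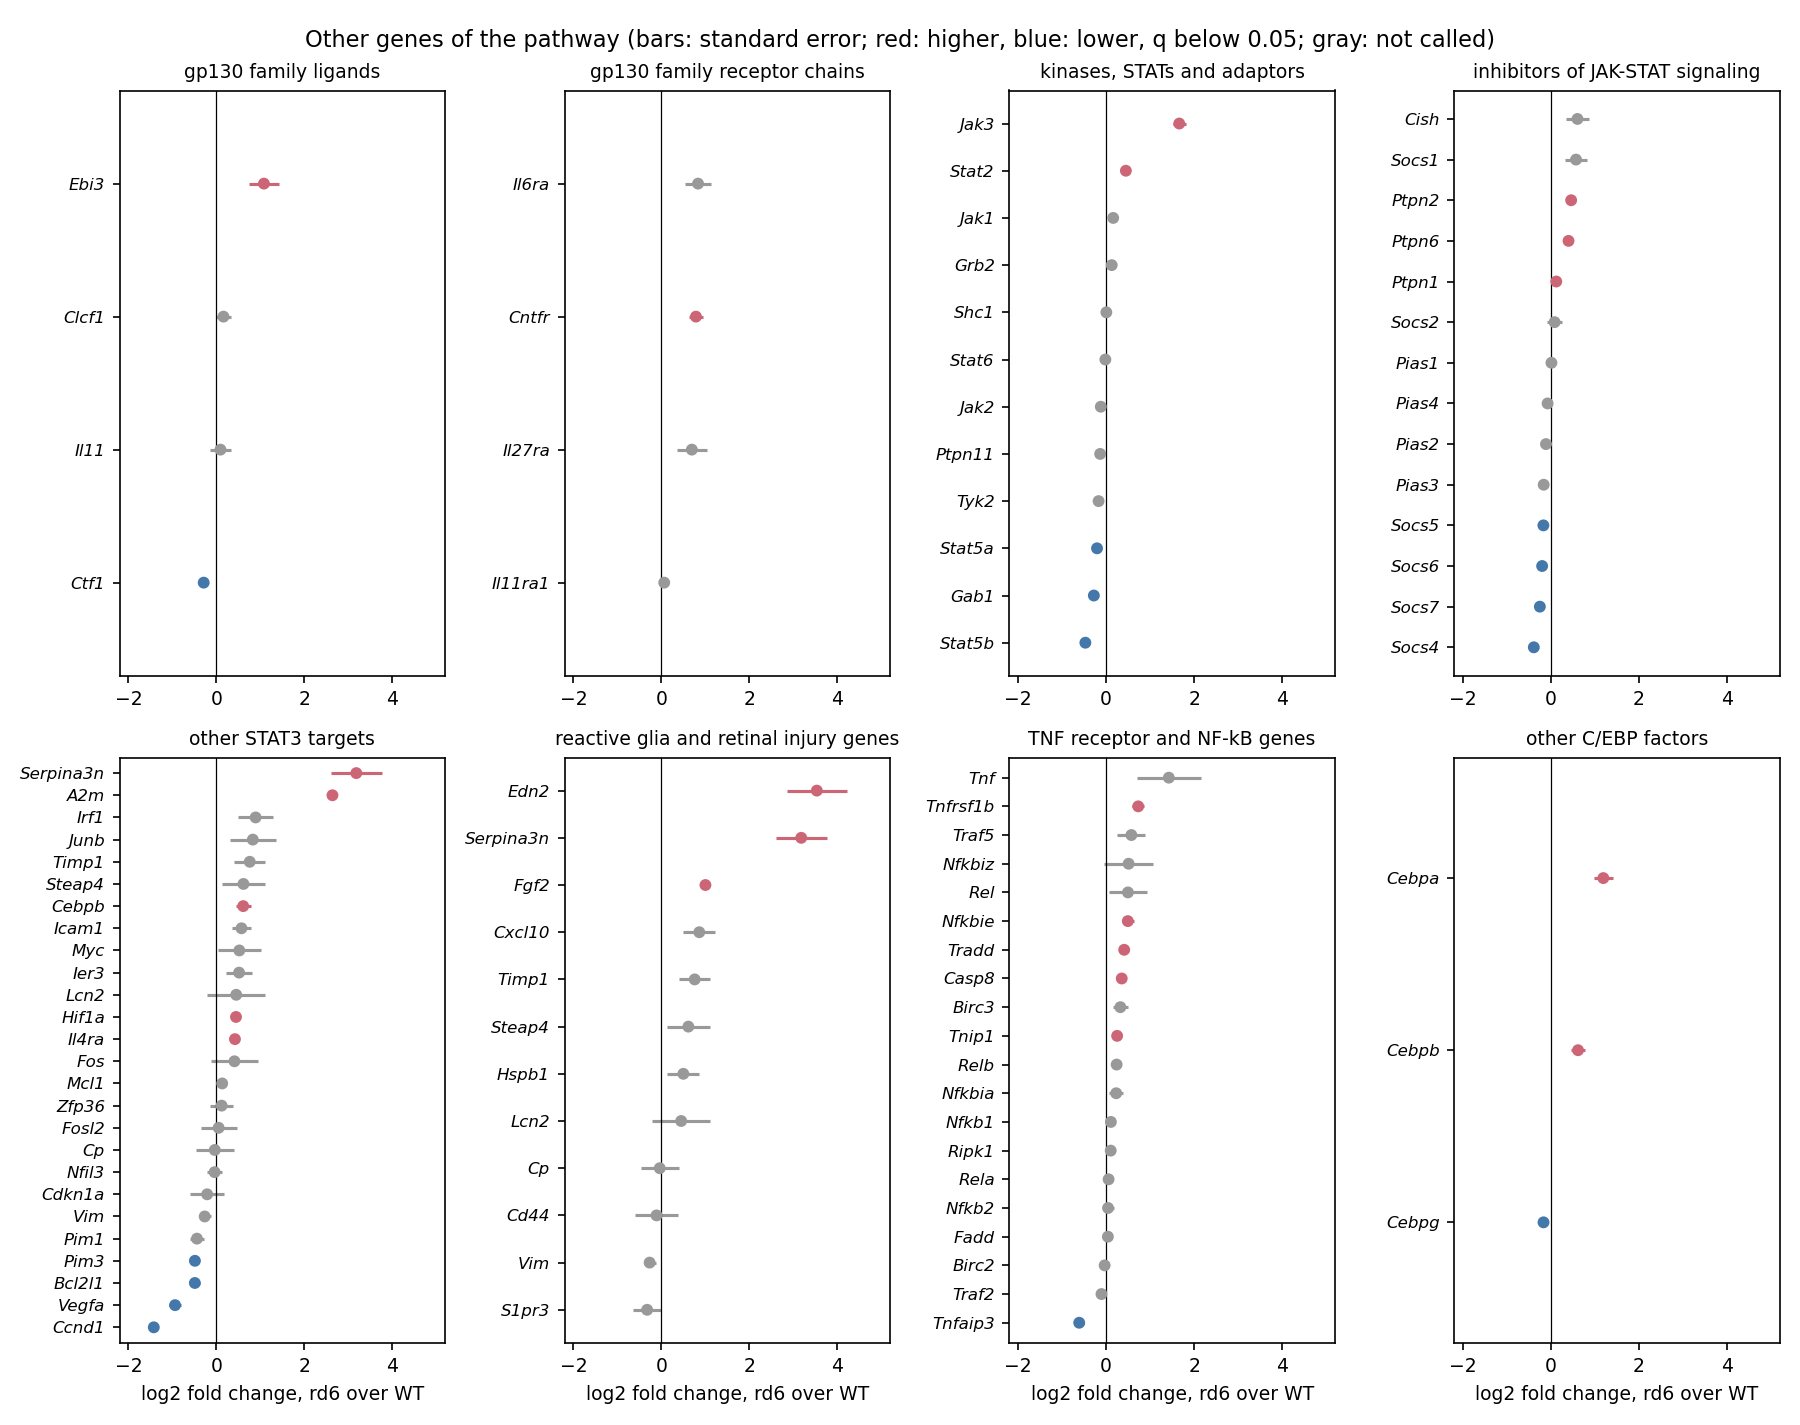
Log2 fold change of rd6 over WT (horizontal axes, points with standard errors) for tested genes of 8 lists of the pathway, with genes called higher in red, lower in blue and not called in gray. Each list but the receptor chains and the reactive glia genes holds calls in both directions, and *Edn2*, *Serpina3n* and *A2m* lie farthest to the right.

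The targets of the pathway among the 10 genes were *Cebpd*, *Bcl3* and *Gfap*. *Cebpd* (chr16:15887286-15891031) encodes C/EBP delta, a transcription factor of the acute-phase response. It measured 371, 445 and 526 normalized counts in WT and 1044, 1127 and 1735 in rd6, with the groups apart and rd6 replicate 6 well above the other rd6 libraries. The means were 451 ± 60.7 and 1242 ± 263 (SD, n = 6), a ratio of 2.75, and the log2 fold change was 1.44 ± 0.13 SE. Its exons share bases with *Spidr* on the opposite strand.

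*Bcl3* (chr7:19808462-19822770), which encodes an atypical IκB protein that works with NF-κB subunits, was low in both genotypes. Of the 6 WT libraries 5 lay between 23.7 and 35.5 normalized counts and WT replicate 4 reached 179, above each rd6 library (63.6, 105 and 144 as lowest, median and highest). With all libraries the ratio of the means was 1.90 and the log2 fold change 1.31 ± 0.42 SE. Without WT replicate 4 the groups no longer overlapped, the WT mean was 29.8 ± 4.16 (SD, n = 5), the ratio of the means 3.49 and the log2 fold change 1.73 ± 0.20 SE. An antisense transcript shares bases with its exons, so reads on those bases could come from either. Whether they were counted for *Bcl3* is not stated.

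*Gfap* (chr11:102887336-102900912) measured 1376, 2369 and 2946 normalized counts in WT and 724, 1702 and 2964 in rd6. The groups overlapped almost fully: rd6 replicate 3 was the highest and rd6 replicate 4 the lowest of the 12 libraries. The means were 2291 ± 594 and 1767.5 ± 713 (SD, n = 6), and the log2 fold change of -0.44 ± 0.28 SE ranged from -0.61 to -0.20 as single libraries were left out. On average *Gfap* was thus no higher in rd6, while *Stat3* was above the WT range in all 6 rd6 libraries.

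Of 26 other genes listed as STAT3 targets that could be tested, 5 rose and 4 fell, or 19.2% and 15.4%, where 11.4% and 11.6% of all genes did. Without WT replicate 4 the number that rose was 9. *A2m*, which encodes the broad protease inhibitor alpha-2-macroglobulin, rose from 15105 ± 1264 to 94116 ± 5438 normalized counts (SD, n = 6; log2 fold change 2.64 ± 0.07 SE, limma q = 8.59e-11). *Serpina3n*, a serine protease inhibitor of reactive glia, rose from 2076.5 ± 1876 to 12269 ± 1548 (log2 fold change 3.18 ± 0.58 SE, limma q = 0.00177). Its WT libraries were widely spread, from 254 to 4909, with WT replicate 4 again the highest, and all lay below the lowest rd6 library at 9792. *Cebpb* (0.61 ± 0.17 SE, limma q = 0.0205), *Il4ra* (0.42 ± 0.09 SE, limma q = 0.00461) and *Hif1a* (0.45 ± 0.08 SE, limma q = 0.00123) rose by less.

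Of the targets that fell, *Ccnd1*, cyclin D1, fell from 13154 ± 1557 to 4928 ± 834 normalized counts (log2 fold change -1.42 ± 0.11 SE, limma q = 1.33e-06), and *Vegfa*, the vascular growth factor that the RPE secretes toward the choroid, from 17416 ± 4185 to 8943 ± 1086 (-0.94 ± 0.14 SE, limma q = 0.000477). *Pim3*, a survival kinase (-0.49 ± 0.07 SE, limma q = 0.000354), and *Bcl2l1*, which encodes the antiapoptotic BCL-XL (-0.49 ± 0.12 SE, limma q = 0.00955), also fell. For all but *Bcl2l1* the groups did not overlap.

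The fast targets *Fos*, *Junb* and *Myc* were not called, with log2 fold changes of 0.41 ± 0.54 SE, 0.83 ± 0.52 SE and 0.52 ± 0.49 SE (limma q = 0.624, 0.277 and 0.476). *Junb* measured 1043 normalized counts in WT replicate 4, and without that library its log2 fold change was 1.24 and was called. *Irf1*, at 1304 there, came to 1.27 without it and was called too. Both had log2 fold changes above 0 also with that library included.

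**Figure D3:**
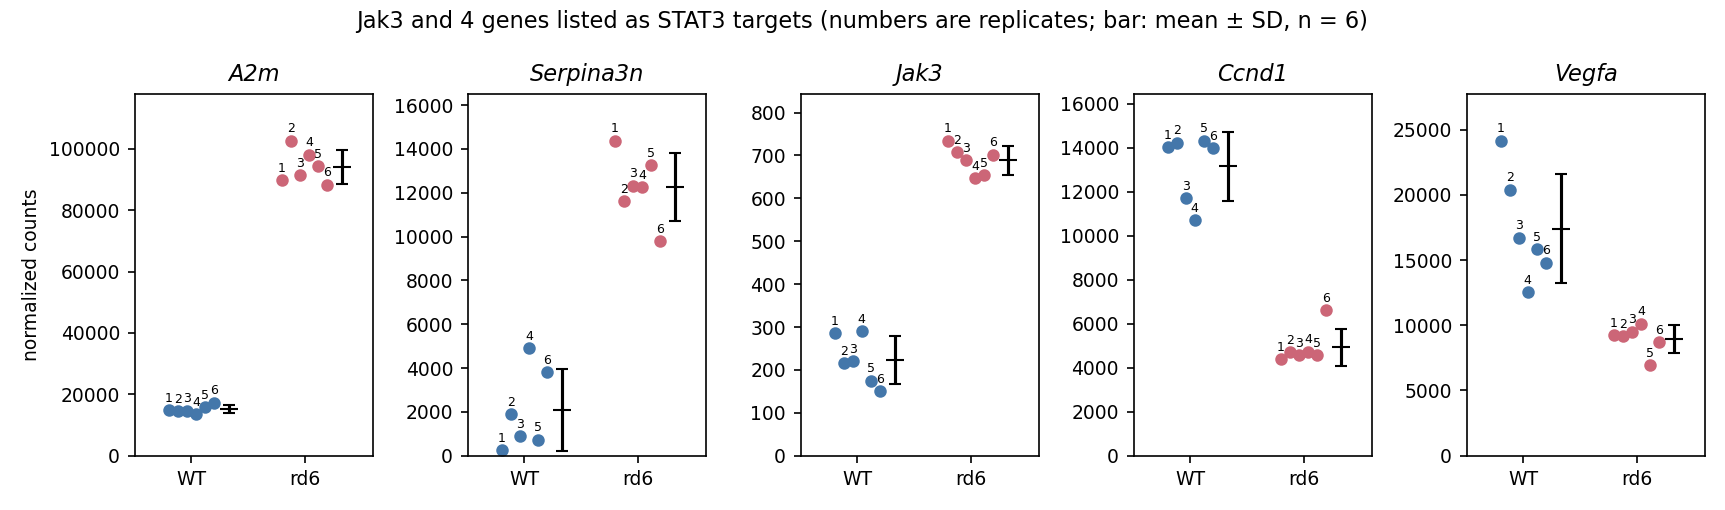
Normalized counts (vertical axes, linear and starting at 0) of *Jak3* and of 4 genes listed as STAT3 targets in the 6 WT (blue) and 6 rd6 (red) libraries, numbered by replicate, with the mean ± SD of 6 in black. *A2m*, *Serpina3n* and *Jak3* are higher and *Ccnd1* and *Vegfa* lower in every rd6 library than in any WT library.

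Of 12 tested genes of reactive glia and retinal injury, 3 rose and the other 9 were not called. *Edn2*, endothelin 2, which stressed photoreceptors release, measured 0, 2.07 and 17.6 normalized counts in WT and 16.9, 40.2 and 155 in rd6 (lowest, median and highest; log2 fold change 3.54 ± 0.68 SE, limma q = 0.00237). At these low levels the log2 fold change was 1.94 with a pseudocount of 10 and 4.41 with one of 0.1. *Fgf2*, a survival factor of photoreceptors, rose from 226 ± 17.6 to 458 ± 67.6 (log2 fold change 1.00 ± 0.10 SE, limma q = 1.48e-05), with the groups apart. *Serpina3n* was the third. The glial genes *Vim* (-0.26 ± 0.14 SE), *S1pr3* (-0.32 ± 0.32 SE), *Lcn2* (0.45 ± 0.66 SE) and *Cd44* (-0.11 ± 0.48 SE) were not called (limma q = 0.196, 0.505, 0.66 and 0.896).

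The other C/EBP factors moved in both directions. *Cebpa* rose from 111 ± 45.3 to 242 ± 41.0 normalized counts (log2 fold change 1.19 ± 0.21 SE, limma q = 0.00166), its highest WT library, replicate 4 at 192, overlapping the lowest rd6 library at 189. *Cebpb* rose as given above. *Cebpg*, which lacks an activation domain of its own, fell by 0.17 on the log2 scale (SE 0.04, limma q = 0.00593).

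*Tnfrsf1a* (chr6:125349362-125362484) encodes the main receptor for tumor necrosis factor (TNF). Its levels were 2469, 2618 and 2793 normalized counts in WT and 4402.5, 4703 and 4977 in rd6, tight and widely apart. The ratio of the means was 1.79 and the log2 fold change 0.84 ± 0.05 SE, between 0.83 and 0.86 when any library was left out. Over the 12 libraries its pattern was among the 5 most like that of *Stat3*. That likeness contains the difference between the genotypes, with which in view both genes were picked. With the genotype means taken away, r was 0.50 and *Tnfrsf1a* ranked 2350 among the genes tested.

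Of 20 tested genes of TNF receptor and NF-κB signaling, 5 rose and 1 fell; 9 rose without WT replicate 4 and 3 with replicate as a block. *Tnfrsf1b*, the second TNF receptor, rose from 160 ± 36.7 to 264 ± 37.6 normalized counts (log2 fold change 0.73 ± 0.14 SE, limma q = 0.00259). The adaptor *Tradd* (0.41 ± 0.11 SE, limma q = 0.0154), the protease *Casp8* (0.35 ± 0.08 SE, limma q = 0.00744), the inhibitor *Nfkbie* (0.49 ± 0.13 SE, limma q = 0.0174) and *Tnip1* (0.25 ± 0.06 SE, limma q = 0.0131) rose too, but *Tradd* and *Tnip1* were not called with replicate as a block. *Tnfaip3*, the A20 enzyme that shuts off NF-κB, fell from 667 ± 121 to 431 ± 33.5 (-0.61 ± 0.11 SE, limma q = 0.00154, groups apart).

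*Tnf* itself was low, with a median of 3.52 normalized counts in WT and 13.3 in rd6, and 57.3 in WT replicate 4 (log2 fold change 1.42 ± 0.73 SE, limma q = 0.187). Without that library it was 2.09 ± 0.49 SE and was called. The subunit genes *Nfkb1*, *Nfkb2*, *Rela* and *Relb* had log2 fold changes between 0.04 and 0.24 and were not called (limma q = 0.278, 0.839, 0.505 and 0.14).

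Counted over all 90 tested genes of these lists, 21 rose and 14 fell, or 23.3% and 15.6%, where 11.4% and 11.6% of all genes tested did. The median log2 fold change was 0.15, beside 0.00 for all genes tested (0.0049). Without WT replicate 4 the number that rose was 33, which included the same 21. Among the 12 added were *Tnf*, *Irf1*, *Junb*, *Il6ra*, *Rel*, *Hspb1*, *Traf5*, *Ier3*, *Birc3*, *Jak1* and *Mcl1*, and WT replicate 4 was the highest WT library for each of them.

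Within each genotype the other 9 genes were compared with *Stat3* across libraries. Of 18 relations over 6 libraries each, 0 passed an exact two-sided permutation test at an adjusted p below 0.05, and 0 had an unadjusted p that low, by Pearson or Spearman. With 6 libraries the smallest p this test can give is about 0.0028. After adjustment over 18, no single relation could therefore have passed on its own, and a relation is not excluded. The lowest p was for *Socs3* in WT (r = 0.77, permutation p = 0.0806, adjusted p = 0.59; rho = 0.60, permutation p = 0.242, adjusted p = 0.756), and r was 0.80 without the 2 libraries farthest from the median of *Stat3*. *Socs3* in rd6 gave r = -0.26 (permutation p = 0.594, adjusted p = 0.843; rho = -0.54, permutation p = 0.297, adjusted p = 0.756). *Bcl3* in WT had the highest r, 0.89 (permutation p = 0.158, adjusted p = 0.59; rho = 0.60, permutation p = 0.242, adjusted p = 0.756), which rested on those 2 libraries and was 0.07 without them. *Osmr* in WT had the lowest, -0.62 (permutation p = 0.261, adjusted p = 0.783; rho = -0.20, permutation p = 0.714, adjusted p = 0.756), and was -0.37 without them.

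By levels over the 12 libraries, the 5 genes most like *Stat3* were *C4b* (r = 0.995), *Parp3* (0.993), *Irs1* (0.991), *Lix1l* (0.990) and *Tnfrsf1a* (0.989). These values contain the difference between the genotypes. With the genotype means taken away, they were *Oas1a* (0.931), *Pcyt1a* (0.909), *Rps12* (0.907), *Cpd* (0.896) and *Pard3* (0.893), of which *Oas1a* is an interferon-induced antiviral gene. By that measure *Osmr* was at -0.04, *Cebpd* at 0.13, *Lifr* at 0.34, *Tnfrsf1a* at 0.50, *Socs3* at 0.61 and *Bcl3* at 0.67. All are descriptions over the same 12 libraries.

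Markers of microglia and macrophages moved with the genotypes. Of 16, 15 rose, *Csf1r* being the exception, with a median log2 fold change over the 16 of 3.24. Their summed level without *Csf1r*, which alone made up most of it in WT, was 1739 to 3858 normalized counts in WT and 14462 to 35904 in rd6 (15522 to 22141 and 31998 to 56756 with it). The defining genes *P2ry12* and *Tmem119* measured 11.8 ± 3.17 and 149.8 ± 30.9 in WT and 247 ± 86.4 and 455 ± 73.7 in rd6. Within rd6, replicate 1, with the lowest sum of 14462, had the highest *Stat3* (5038) but the lowest *Cebpd* (1044) and, after replicate 3, the lowest *Osmr* (13492). Replicate 4, with the highest sum, had 4748, 1089 and 14276. Replicate 6, with the next highest, had the highest *Cebpd* (1735) and *Osmr* (19725) but the lowest *Socs3* (266) and *Lifr* (911) of the rd6 libraries. The part of these cells in the higher *Stat3*, *Osmr*, *Lifr*, *Socs3*, *Cebpd*, *Bcl3* and *Tnfrsf1a* was not tested.

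**Figure D4:**
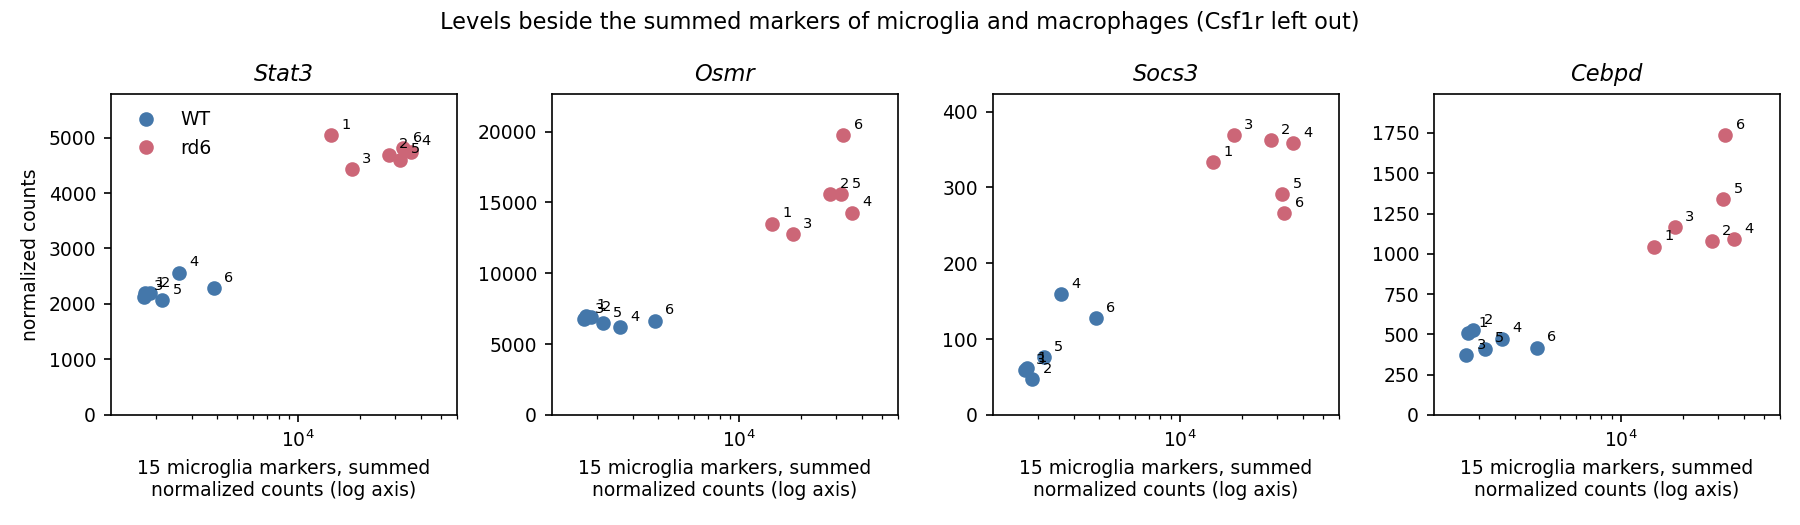
Normalized counts of *Stat3*, *Osmr*, *Socs3* and *Cebpd* (vertical axes, starting at 0) against the summed normalized counts of 15 markers of microglia and macrophages without *Csf1r* (horizontal axes, log scale), 1 point per library, numbered by replicate, WT in blue and rd6 in red. The genotypes form separate clouds on both axes, and rd6 replicate 1, at 14462 on the horizontal axis, has the highest *Stat3* and the lowest *Cebpd* of the rd6 libraries.

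Other cell types also differed. Of 7 endothelial markers 5 rose (3 without WT replicate 2, and 3 with replicate as a block), with summed levels of 6849 to 13026 normalized counts in WT and 9708 to 23926 in rd6. Of 10 RPE markers 4 fell and the other 6 were not called, and the sum of the 10 was 943940 to 1382800 in WT and 619880 to 881000 in rd6. Among neutrophil markers *S100a8* rose, from 3.32 to 38.4, while the defining *Ly6g* and *Mpo* were at or near 0. Without WT replicate 4, 2 neutrophil markers were called higher, *S100a8* and *S100a9*. Of the rod markers 4 of 12 fell, with rd6 replicate 5 at a sum of 65219 above the 18112 to 24452 of the other rd6 libraries. Without that library 11 fell, without WT replicate 1 or 5 it was 7 or 8, and the count was 2 by edgeR and 1 with replicate as a block. The part of these cells in the levels of the 10 genes was not tested either.

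The leading markers of each list by abundance, on the scale of log2 fold changes, were *Ctss* (3.84, limma q = 4.95e-07) and *Csf1r* (0.12, limma q = 0.385) for microglia, *Plvap* (0.93, limma q = 0.00696) and *Vwf* (0.37, limma q = 0.35) for endothelium and *Rgr* (-0.88, limma q = 0.00113) and *Rlbp1* (-0.46, limma q = 0.013) for RPE. For fibroblasts they were *Dcn* (-0.63, limma q = 0.0697) and *Col1a2* (-0.16, limma q = 0.693), and for Schwann cells *Sox10* (-0.64, limma q = 0.000541) and *Mbp* (-0.61, limma q = 0.0307). Of the rod markers *Gnat1* was at -0.94 (limma q = 0.0737). *S100a9* (not called, limma q = 0.0785) and *S100a8* (3.29, limma q = 5.5e-05) led the neutrophil list. *S100a9* stood at 120 normalized counts in WT replicate 4 and at 15.8 or less in the other WT libraries, and was called higher without that replicate. Of the T cell markers *Cd4* (-0.80, limma q = 0.178) came first and *Cd3g*, at 12.4 normalized counts or less, second.

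Across libraries *Gfap* varied together with some glial genes. With the genotype means taken away, it was at r = 0.908 with *S1pr3*, 0.814 with *Slc1a3*, a glial glutamate transporter, and 0.791 with *Pax2*, which marks astrocytes of the optic nerve head and is not made by mature Müller glia, but at 0.668 with *Vim* and 0.383 with *Aqp4*. *Pax2* rested on only 13 to 31 reads per library in WT and 9 to 28 in rd6. The other glial markers listed were not compared in this way. The genes most like *Gfap* were *Gria1* (0.914), *S1pr3*, *Cldn11* (0.907), *Galnt16* (0.878) and *Mlc1* (0.875). This comparison was chosen after the values were seen and is a description over 12 libraries. The summed levels of 4 astrocyte markers were 4041 to 5738 normalized counts in WT and 2660 to 3587 in rd6, where 2 of the 4, *Aldh1l1* (-0.64, limma q = 0.000694) and *S100b* (-1.06, limma q = 0.00572), fell by log2 fold change and *Pax2* and *Slc1a2* were not called. Of 6 markers of Müller glia, *Glul* fell (log2 fold change -0.23, limma q = 0.00938) and the other 5, among them *Slc1a3* (-0.39, limma q = 0.399), were not called. The part of glial cells carried over with the RPE in the level of *Gfap* was not tested.

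**Figure D5:**
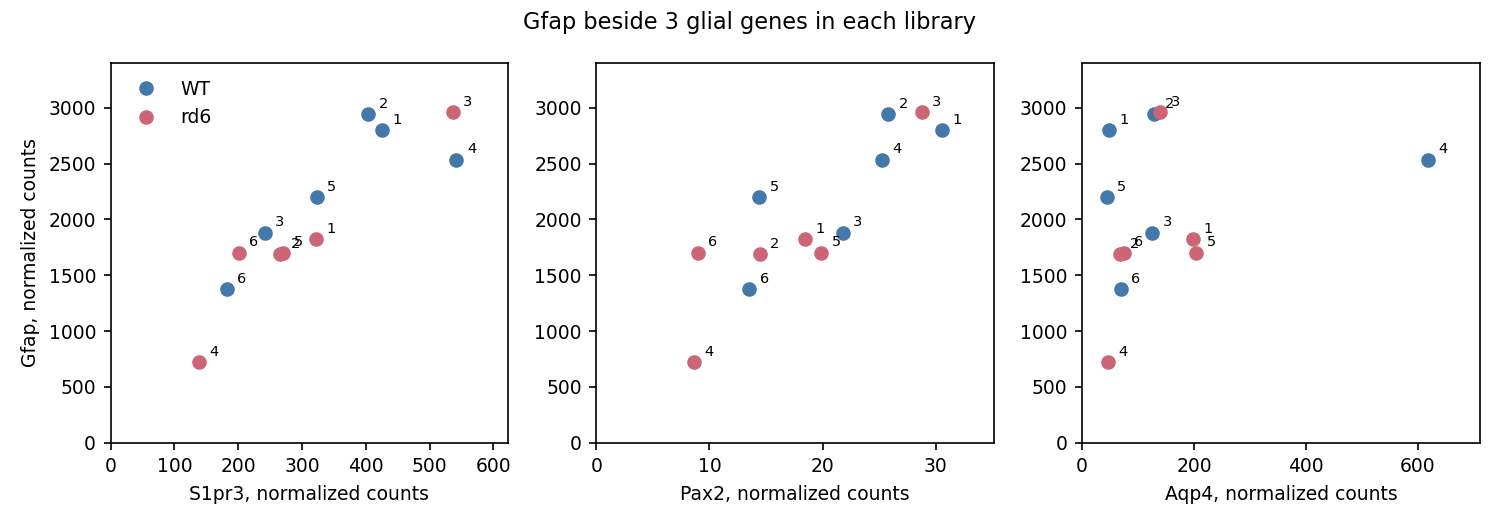
Normalized counts of *Gfap* (vertical axes, starting at 0) against those of *S1pr3*, *Pax2* and *Aqp4* (horizontal axes, linear and starting at 0), 1 point per library, numbered by replicate, WT in blue and rd6 in red. The libraries of both genotypes lie along a common slope for *S1pr3* and *Pax2*, with rd6 replicate 4 at the bottom and rd6 replicate 3 near the top, and scatter for *Aqp4*, where WT replicate 4 stands alone at 618.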

How the data were processed

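The sample labels gave the genotype of 12 RNA-seq libraries of mouse RPE, 6 of each. Per the study's methods, the authors made stranded total-RNA libraries, aligned read pairs to mm10 and counted them with Rsubread at standard settings, with no version given, and normalized them with DESeq2. What they deposited is a signal for every gene in every library, namely its reads over the size factor. The other deposited columns hold the authors' own comparison (log2 fold change, Wald score and p-value) and were not used. Dividing by the worth of 1 read gave whole numbers (100% within 0.001) in each library, and 3 reads were taken as the floor. Such depths cover counting error only.

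Of 28596 entries, 5 repeats were dropped. Since the values were normalized, limma was the main test, as designed for that case. limma 3.58.1 (R 4.3.3, mean-variance trend, genotype as the only term) was run on log2(value + 1) over 17768 genes averaging 10 or more and tested on simulated data, with Benjamini-Hochberg adjustment over all of them. Fold changes are on that scale and understate the change of low genes. The alternatives changed the pseudocount (0.1 or 10) or the filter (none, or 10 in every library), or used TMM rescaling, log2(CPM + 1), edgeR 4.0.16 and DESeq2 1.42.0 on the recovered reads, the replicate number as a block, and leaving out each library. Nothing states that same-numbered libraries are paired. Samples are separate per the labels, and no source says whether littermates were used.

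The 10 members and all lists were chosen with earlier results of these data known. Genes named are the members, *Mfrp*, every ligand and receptor chain, up to 4 called genes with the largest fold change from each other list, the 5 genes most like *Stat3* by each measure and the 2 most abundant genes of each marker list. A few genes of the lists enter the counts but are not reported here. Others were added once their values had been seen, among them *Jak1*, *Jak2*, *Tyk2*, *Stat6*, *Fos*, *Junb*, *Myc*, *Irf1*, *Tnf*, *Socs1*, *Cish*, *Vim*, *Cd44* and *S1pr3*. Coordinates are from GENCODE M21 (GRCm38, called mm10), and promoter windows from RefSeq.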

Additional observations from a re-analysis of the deposited data

Results flagged for a closer look

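Of 90 groups of 6 libraries checked for 1 library far from the rest, by the gap to its neighbor over the whole range, 15 were found. Chance flags about 1 in 20 groups, and 5 of the 15 came from WT replicate 4.

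WT replicate 4 stood above the other WT libraries in *Bcl3* (179 normalized counts against 23.7 to 35.5), *Il6ra* (116, with 24.7 the lowest), *Il31ra* (15.5 against 0 to 1.11) and *Tnfrsf1b* (232 against 128 to 161). It was below them in *Stat5b* (2235 against 2717 to 2954).

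In rd6 replicate 5, *Il6st* was low at 4784 normalized counts (6055 to 6469.5 in the others) and *Edn2* high at 155 (16.9 to 49.4). In rd6 replicate 1, *Il6ra* was high at 105 (73.9 to 83.1) and *Ebi3* low at 11.6 (19.5 to 22.6). *Ccnd1* stood out in rd6 replicate 6 at 6613 (4399.5 to 4720.4 in the others), and *Osm* in rd6 replicate 4 at 15.3 (2.98 to 7.19).

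Among the WT libraries, replicate 3 was high in *Osm*, at 4.15 normalized counts (0 to 1.03 in the others), and in *Edn2*, at 17.6 (0 to 6.19). Replicate 6 was high in *Ebi3*, at 25.1 (5.19 to 9.71), and low in *Ptpn2*, at 417 (465 to 487).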

How the results depend on the processing

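The genes counted first are the 29 named by rule that could be tested, without the members and those added after their values were seen. Under the alternatives run, none of their log2 fold changes changed sign where it was called, and of 606 values 583 kept their direction and side of the threshold, 22 were no longer called and 1 (*Il6ra* without WT replicate 4) was newly called. The lost calls were those of *Ebi3*, *Ctf1* and, with the replicate block, *Tradd*. The count of pathway genes that rose went from 21 to 33 without WT replicate 4, and ranged from 19 to 33 as single libraries were left out. The cause was not tested. The log2 fold change of *Bcl3* was 0.93 by DESeq2 and 1.33 with a pseudocount of 0.1, and that of *Serpina3n* 2.56 by edgeR with RLE scaling.

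With the replicate number as a block, 17 pathway genes rose and 12 fell, and 1453 of all genes were higher and 1489 lower. The numbers do not pair the samples: deviations of same-numbered libraries correlated at -0.25 on average over 6 pairs (-0.74 to 0.31). With 28907262 to 33152725 reads per library, *Lif*, *Il6* and *Osm* fell below the filter on low values.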
